A study of Mus musculus with 1536 samples.

Results

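The receptors that bind hyaluronan and modified proteins or lipids were followed in adult lymphatic endothelial cells (LECs) of the mouse nasopharyngeal mucosa. The 10 genes were chosen by symbol from the 23168 genes of the adult expression matrix, and all 10 have a row. They are *Lyve1*, *Stab1*, *Stab2*, *Mrc1*, *Cd36*, *Cd44*, *Scarb1*, *Msr1*, *Hyal2* and *Ptx3*, and they were described over all adult cells of the matrix. Tissue of 30 C57BL/6 mice of both sexes, aged 10 to 12 weeks and carrying no named allele or treatment, was pooled. CD31+ PDPN+ cells were sorted into plates and sequenced by Smart-seq3, which reads full-length cDNA of each sorted cell. The labels give neither mouse nor plate, so the cells are 1 sample, every spread below is between cells, and no test was made. The pooled tissue and the gate on CD31 and PDPN limit the cells to those that carried both proteins.

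Hyaluronan is a large sugar polymer of the tissue matrix that reaches lymph in great amounts and is cleared by endothelial receptors in lymphatics, lymph nodes and liver. LYVE1 is the lymphatic receptor with a hyaluronan-binding link module, CD44 is its relative on many other cells, and STAB2 is the main uptake receptor for hyaluronan in sinusoidal endothelium. Scavenger receptors take up oxidized lipoproteins, collagen fragments, glycated proteins or sugars into endosomes, and several of them are best known from macrophages.

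Values are the natural log (ln) of 1 plus reads per 10000, and a gene was called found in a cell with at least 1 recovered read. Reads per cell ranged from 7433 to 3524358 with a median of 350746. For pairs of genes in the same cells, cells were therefore thinned to 20000 reads each, and the 51 shallower cells were left out. The cells carried lymphatic markers: *Prox1*, the lymphatic master regulator, named after its value was seen, was found in 97.7% of cells, *Flt4*, which encodes VEGFR3, in 99.8% and *Mmrn1* in 100%. *Pecam1*, which encodes CD31, was found in 99.6%. All 8 genes of the list used for LECs were found in at least 50% of cells. That list includes *Pecam1* and *Pdpn*, on whose proteins the cells were sorted, and *Cdh5*, which the study describes as pan-endothelial, so these 3 do not tell LECs apart. *Ptprc*, which encodes the leukocyte antigen CD45, had no read in any cell, also in the 2 wells with at least 9 macrophage markers described below. At the limit of 3 counts this allows a share of up to 0.356% of cells with a read, and it sets no limit on the number of leukocytes.

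Promoter sequence is shown for the common *Stab1*, the nearly undetected *Cd44*, and *Stab2*, *Mrc1* and *Ptx3*, which occurred in the same cells. They were not chosen by level, but are all members with enough bases in the promoter table. Each line gives 120 bases that end before the first start of the gene in both RefSeq and GENCODE. The promoter table of RefSeq on GRCm38.p6 held 7 of the 10 members. For *Cd36* and *Hyal2* it held fewer than 120 bases before both starts, so they are not shown. Capitals mark GGAA, the core of ETS sites, and GATA, on either strand, and in *Mrc1* the letters of GATA on both strands overlap. The *Ptx3* line has neither.
Stab1, chr14:31168642-31168761, minus strand: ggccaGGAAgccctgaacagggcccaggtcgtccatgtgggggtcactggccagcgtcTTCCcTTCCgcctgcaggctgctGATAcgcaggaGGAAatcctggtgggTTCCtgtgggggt
Stab2, chr10:87008026-87008145, minus strand: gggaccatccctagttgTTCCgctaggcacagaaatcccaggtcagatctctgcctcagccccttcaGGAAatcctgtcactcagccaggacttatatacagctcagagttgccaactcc
Mrc1, chr2:14229272-14229391, plus strand: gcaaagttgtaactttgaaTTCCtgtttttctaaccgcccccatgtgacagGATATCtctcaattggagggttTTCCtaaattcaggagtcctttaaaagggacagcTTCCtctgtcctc
Ptx3, chr3:66219767-66219886, plus strand: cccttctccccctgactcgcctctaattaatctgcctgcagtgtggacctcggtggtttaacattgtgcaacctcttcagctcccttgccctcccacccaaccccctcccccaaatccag
Cd44, chr2:102901666-102901785, minus strand: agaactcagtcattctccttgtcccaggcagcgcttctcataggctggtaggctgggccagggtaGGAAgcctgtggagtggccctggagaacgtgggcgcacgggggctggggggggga

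Over the full 250 bases before the RefSeq start, GGAA matched 6 times each for *Stab1*, *Stab2* and *Mrc1*, 8 times for *Cd44* and 1 time for *Ptx3*. At least 1 GGAA is also present in 93.4% of all 32851 promoters of that length. GATA matched 2 times for *Mrc1* and 1 time for each of the other 4, outside the printed bases for *Stab2*, *Cd44* and *Ptx3*, and 53.6% of all promoters have a match. Among the other motifs searched on both strands, the nuclear receptor motif AGGTCA (14% of promoters) matched 1 time in *Stab2*. The MAF motif TGCTGA (16.1%) matched 1 time in *Stab1*, where it overlaps the GATA. The forkhead motif TAAACA (12%), the AP-1 motif TGANTCA (6.75%) and the TATA box TATAAA (12.4%) had no match in these 5 windows. A match is only a description of the letters.

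The 2 stabilin genes encode related large receptors of sinusoidal endothelium, and they were spread over the cells in different ways. *Stab1* (chromosome 14 of GRCm38, 31139013 to 31168641), a receptor for acetylated lipoprotein and the matrix protein SPARC, was found in 99.9% of cells (95% exact interval 99.3 to 100), that is in all but 1 cell. Its values ran from 0 through a median of 3.24 to 5.13, with a mean of 3.18 ± 0.752 (SD over all cells). At 20000 reads it was still found in 99.2% of cells. *Stab2* (chromosome 10, 86841198 to 87008025) was found in 57.8% of cells (54.4 to 61.2) and in 40.2% at equal depth. Its median was 0.04 and its highest value 3.86, with a mean of 0.738 ± 1.04, so a large part of the cells lay at or near 0 and 31.2% lay above 1. Exons of *Stab1* and *Stab2* overlap those of *Nt5dc2* and *Gm16268* on the other strand over 1.09% and 1.61% of their length, and counting by strand is not stated.

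*Lyve1* (chromosome 7, 110850607 to 110863239) was found in 86.8% of cells (84.3 to 89), but in 59.5% at equal depth. Its ln values fell toward both ends of the scale, with 13.2% of cells without a read, 38.5% above 0 and up to 1, 9.5% between 1 and 2, 15.4% between 2 and 3, 18.9% between 3 and 4, and 4.51% above 4. These limits were chosen after the values had been seen. The mean was 1.47 ± 1.5 and the median 0.86. The top 84 cells held 47.9% of the summed *Lyve1* reads per 10000, against 26% for *Stab1*. *Cd44* (chromosome 2, 102811141 to 102901665), the receptor that LYVE1 resembles, was found in only 6 cells (0.713%, 0.262 to 1.54) with 28 reads in all. In 5 of them it had 2 reads each, and the other cell, with 18 reads, also held 9 of the macrophage markers and an ln value of 5.53 for the macrophage lysozyme gene *Lyz2*.

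*Hyal2* (chromosome 9, 107567945 to 107572779) encodes a cell-surface hyaluronidase that cuts long hyaluronan into fragments. It was found in 69.5% of cells (66.2 to 72.6), in 57.3% at equal depth, with a median of 0.72, a highest value of 3.31 and a mean of 0.833 ± 0.833. The mannose receptor gene *Mrc1* (chromosome 2, 14229392 to 14332057), which encodes an endocytic lectin also used as a macrophage marker, was found in 41.8% (38.4 to 45.2), with a mean of 0.349 ± 0.598 and a highest value of 3.75. *Cd36* (chromosome 5, 17781690 to 17888801), a fatty acid and thrombospondin receptor, was found in 22.4% (19.7 to 25.4), with a mean of 0.168 ± 0.433. *Ptx3* (chromosome 3, 66219910 to 66225805) encodes a secreted pentraxin that helps to organize hyaluronan-rich matrix, so it is the ligand-side member of the set. It was found in 19.6% (17 to 22.4), with a mean of 0.129 ± 0.364.

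*Scarb1* (chromosome 5, 125277087 to 125341094), the receptor for high-density lipoprotein, was found in 16% of cells (13.6 to 18.7), with a mean of 0.092 ± 0.308. *Msr1* (chromosome 8, 39581685 to 39642673), the class A macrophage scavenger receptor, was found in 3 cells (0.356%, 0.074 to 1.04) with 2, 2 and 16 reads. The cell with 16 reads had none of the macrophage markers and 45298 reads in all. The values per cell thus fall into a near-universal gene, a group found in most or many cells, a group found in a minority, and a pair at the limit of detection.

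**Figure D1:**
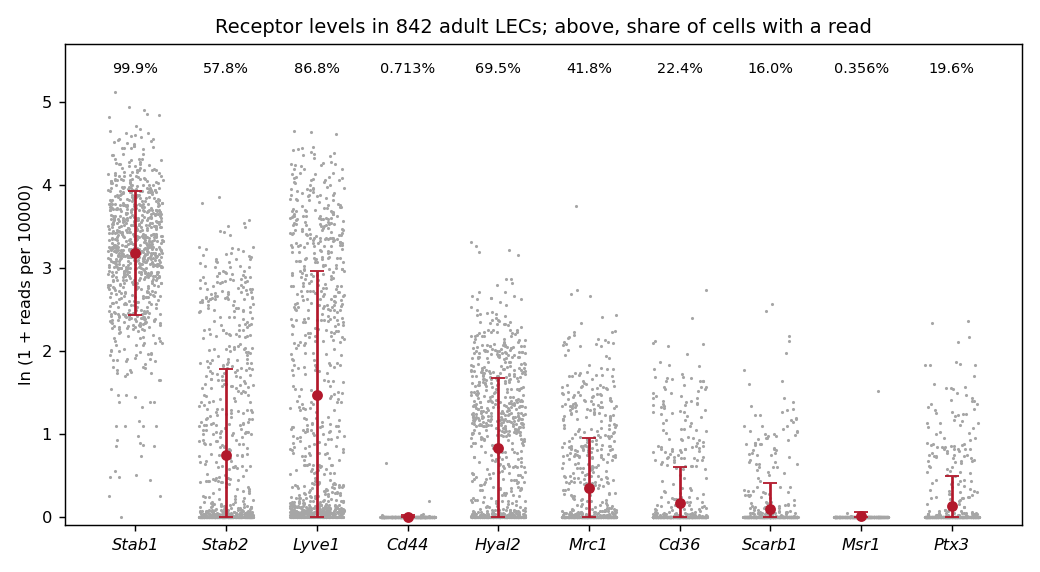
Each grey point is 1 cell, the vertical axis is ln of 1 plus reads per 10000, and red points with bars are the mean ± SD over cells, with the lower bar stopped at 0. *Stab1* forms a single band around its mean of 3.18, *Lyve1* and *Stab2* reach from 0 to above 3, and *Cd44* and *Msr1* lie at 0 in all but 6 and 3 cells.

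Levels were compared between genes only per kilobase of exon. *Lyve1* had a mean of 4.01 reads per 10000 per kb, at percentile 99.3 of the genes with a known length, and *Stab1* had 2.87. *Hyal2* followed with 0.713, *Stab2* with 0.363, *Mrc1* with 0.131, *Cd36* with 0.102, *Ptx3* with 0.097 and *Scarb1* with 0.022, and *Msr1* and *Cd44* were close to 0. So *Lyve1* stood above *Stab1* per kilobase in the mean, although fewer cells had it, and the order turned at the median over cells, with 0.467 reads per 10000 per kb for *Lyve1* and 2.37 for *Stab1*. With 1 sample these levels have no replicate error. The intervals of the shares of cells at full depth overlapped for the neighbours *Cd36* and *Ptx3*, for *Ptx3* and *Scarb1*, and for *Cd44* and *Msr1*, and those of the other neighbours by share did not. At 20000 reads per cell, *Lyve1* (56 to 63%) and *Hyal2* (53.7 to 60.7%) overlapped as well. These intervals cover counting error only, the genes were measured in the same cells of 1 sample, and the shares are not per kilobase. Whether intervals overlapped is therefore a description and not a test between genes.

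Shares of cells rose with depth. Between the cells with at most 87182 reads and those with at least 898136 reads, the share with *Cd36* went from 12.8% to 28.6%, with *Lyve1* from 77.7% to 95.7%, with *Stab2* from 49.8% to 63.8% and with *Hyal2* from 59.2% to 75.7%. The mean ln value moved less evenly, from 1.49 to 1.59 for *Lyve1*, from 0.843 to 0.827 for *Hyal2*, from 0.87 to 0.627 for *Stab2* and from 3.36 to 3.03 for *Stab1*. Pairs of members were therefore compared at equal depth, whereas shares of the other genes below are at full depth.

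A cell carried a median of 4 of the 10 members (range 0 to 8), and 3 at equal depth. The most common set was *Lyve1*, *Stab1*, *Stab2* and *Hyal2*, in 89 cells (10.6%), followed by the same set without *Stab2*, in 86 cells (10.2%). In all, 91 different sets occurred, so no set described most cells. A total of 14 cells held all 8 members other than *Cd44* and *Msr1*. At equal depth the most common set was *Stab1* with *Hyal2*, in 99 cells (12.5%), and 87 sets occurred.

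Which members occurred in the same cells was measured by phi, the correlation of found with not found between 2 genes, at 20000 reads per cell. Phi is 0 where 2 genes are found independently of each other. The highest of the 45 values was 0.33, for *Stab2* and *Mrc1*. *Mrc1* was found in 47.8% of the cells with *Stab2* (42.2 to 53.4) and in 17.3% of those without it (14 to 21.1). *Mrc1* and *Ptx3* had a phi of 0.29, *Stab2* and *Cd36* 0.25, *Stab2* and *Ptx3* 0.24, and *Lyve1* and *Mrc1* 0.22. These were the 5 pairs at or above 0.2. Of the 45, 11 reached 0.1, a limit at which the pairs of all genes were not counted. In unthinned cells 3 pairs reached 0.2, as did 3 with an ln value over 1 as the limit, and *Lyve1* with *Mrc1* was below it in both (0.15 and 0.17).

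Of the 10 members 8 were found in at least 10% of cells, as were 41.7% of all genes in the matrix. Among these 8, 5 of 28 pairs reached 0.2, and the median phi was 0.05. Among all pairs of genes found in at least 10% of cells, 0.0256% did. The pairs of all genes were not matched on the share of cells, and the highest phi that a pair can reach is lower where the shares of its genes differ. *Ptx3* was found in 21.4% of cells with *Stab2* and 5.5% of cells without it, and *Cd36* in 26.1% and 7.61%. For *Ptx3* the shares were 26.5% with *Mrc1* and 5.75% without it. *Stab2*, *Mrc1*, *Cd36* and *Ptx3* thus made up a group found together, in which *Cd36* with *Mrc1* (0.16) and *Cd36* with *Ptx3* (0.13) were the weaker links. The group was not closed. *Lyve1* had 0.22 with *Mrc1* and 0.15 with *Stab2*, both above the weakest of these links, and 0.12 with *Cd36* and 0.09 with *Ptx3*.

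*Hyal2* stood outside that group: its phi with the 7 other frequent members lay between -0.03 and 0.04. It was found in 57.5% of cells with *Lyve1* and in 56.9% of cells without it. *Scarb1* reached 0.10 with *Stab2* and with *Ptx3*, was at 0.00 with *Mrc1* and *Cd36*, and had the lowest value of all pairs, -0.07, with *Lyve1*. *Stab1* was found in nearly every cell, so its presence could not separate cells. Its level could: over all cells the ln value of *Stab1* correlated with *Stab2* (Pearson's r = 0.29), *Lyve1* (0.24), *Mrc1* (0.18) and *Cd36* (0.15), while r with *Hyal2* was 0.00.

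**Figure D2:**
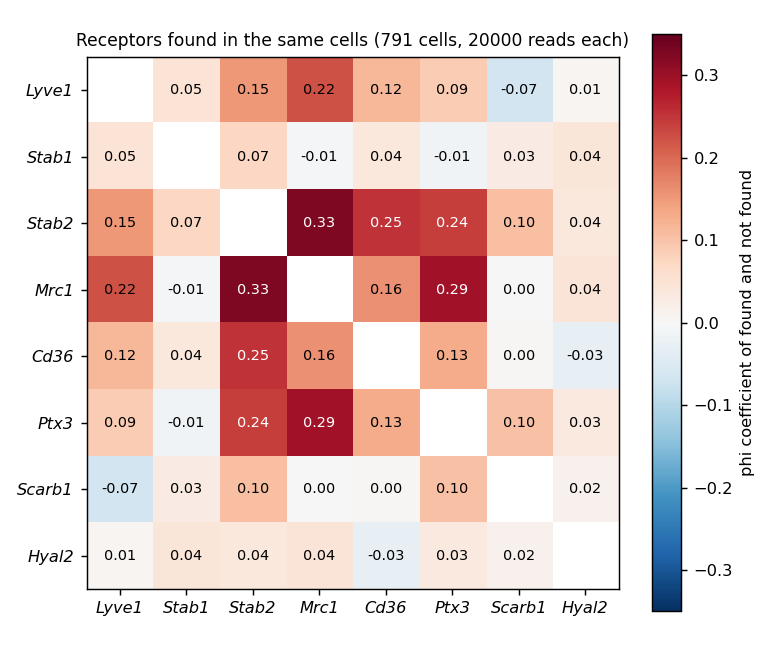
Each square gives phi of found and not found for 2 members over cells thinned to 20000 reads, with red above 0 and blue below 0. The darkest squares join *Stab2* with *Mrc1* (0.33), *Cd36* (0.25) and *Ptx3* (0.24), and *Mrc1* with *Ptx3* (0.29). *Lyve1* with *Mrc1* (0.22) comes next, above *Cd36* with *Mrc1* (0.16) and with *Ptx3* (0.13). The row of *Hyal2* stays between -0.03 and 0.04.

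The joint pattern of the 4 genes was counted after these pairs had been seen. At equal depth, 44.2% of cells had none of *Stab2*, *Mrc1*, *Cd36* and *Ptx3*, 28.2% had 1, 16.3% had 2, 72 cells (9.1%) had 3 and 17 cells (2.15%) had all 4, each of them in cluster 3 of the clustering described next. *Lyve1* was found in 46.3% of cells with none of the 4 (41 to 51.7), in 66.8% with 1, 72.1% with 2, 72.2% with 3 and 88.2% with all 4 (63.6 to 98.5). The mean ln value of *Stab1* was 2.99 ± 0.760 in cells with none and 3.86 ± 0.654 in the 17 cells with all 4. *Hyal2* was found in 56% and 57% of cells with none and 1, in 58.9% and 58.3% with 2 and 3, and in 70.6% of the 17 cells.

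The cells were then clustered by the steps of the study, with the 10 members left out of the clustering genes, into 5 clusters. Clusters 4 and 5 held 48 and 43 cells, the other 3 held 27.1% to 31.8% of all cells each, and they are named here by number and by their 3 leading genes. Cluster 1 was led by *Tgfbi*, *C3* and *Slco2b1*, cluster 2 by *Igfbp5*, *Clca3a1* and *Apoe*, cluster 3 by *Gm525*, *Aqp1* and *Thbs1*, cluster 4 by *Tppp3*, *Cyp4b1* and *Fndc1*, and cluster 5 by *Slc41a1*, *Gdf15* and *Plat*. The members were measured in the same cells as the clustering genes, so differences between clusters are descriptions. With 5 other settings the clusters changed in part, with adjusted Rand indices of 0.544 to 0.809 against these (1 is an identical partition). Of these settings, 1 kept the members among the clustering genes (index 0.626), so there the members helped to form the clusters. Another, the default resolution of 0.8, gave 7 clusters.

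*Stab2* was the member with the sharpest division. Cluster 3 had it in 91.7% of its cells with a mean ln value of 1.88 ± 1.02, cluster 1 in 57.1% with 0.549 ± 0.854, and cluster 4 in 20.8% with 0.04 ± 0.146. None of the 48 cells of cluster 4 exceeded an ln value of 1, against 80.3% of the cells of cluster 3. The cluster with the lowest mean of *Stab2* had the highest of *Lyve1*: in cluster 4 *Lyve1* was found in 100% of cells, from a lowest value of 1.18 through a median of 3.45 to 4.64, with a mean of 3.49 ± 0.641. Clusters 1 and 3 had means of 1.79 ± 1.48 and 1.87 ± 1.52, and clusters 2 and 5 lay lower, at 0.588 ± 0.939 and 0.298 ± 0.543.

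*Mrc1* followed *Stab2* into cluster 3 (72.8% of cells, mean 0.763 ± 0.747) but was also found in 60.4% of cluster 4 (0.472 ± 0.634), and in 35.4%, 22% and 14% of clusters 1, 2 and 5. *Cd36* was found in 43.9% of cluster 3 and in 8.33% to 17.5% of the other clusters. *Ptx3* was found in 38.2% of cluster 3 and in 11.8% to 14% of the others. *Stab1* had its highest mean in cluster 3 (3.5 ± 0.605) and its lowest in cluster 5 (2.43 ± 0.930), and these overlapped within 1 SD. The mean of *Hyal2* lay between 0.664 and 0.914 in all 5 clusters, a range smaller than its SD within each of them. Its share of cells ran from 54.2% in cluster 4 to 76.9% in cluster 2, and from 42.9% to 61.9% in these clusters at equal depth.

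Of the 8 members found in at least 10% of cells, 7 had a highest cluster mean of reads per 10000 at least 2 times the lowest, with *Hyal2* (1.28 times) as the exception. Of all genes found in at least 10% of cells, 51.6% had such a ratio. The ratio was above 100 for *Stab2* (8.95 against 0.055 reads per 10000), 67.8 for *Mrc1*, 48.8 for *Lyve1*, 12.1 for *Ptx3*, 11.4 for *Cd36*, 3.16 for *Scarb1* and 2.56 for *Stab1*. The lowest means rest on few reads in the 2 smallest clusters. *Scarb1* had its highest mean of reads per 10000 in cluster 5, which held 43 cells, and in another cluster under 3 of 5 other settings. By mean ln value cluster 3 (0.136) lay above cluster 5 (0.131). *Cd44* and *Msr1* were found in at most 4 cells of any cluster.

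**Figure D3:**
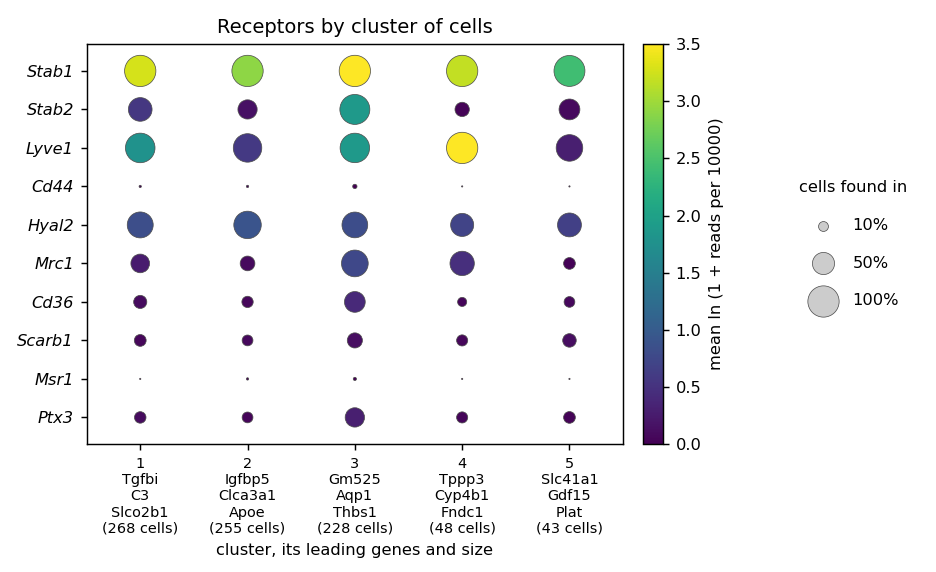
Rows are the 10 members and columns the 5 clusters with their leading genes and sizes. The area of a dot is the share of cells with the gene at full depth and its colour the mean ln of 1 plus reads per 10000. *Stab2*, *Mrc1*, *Cd36* and *Ptx3* have their largest dots in cluster 3, and *Lyve1* is brightest in cluster 4. *Hyal2* is similar in colour in all columns, with shares from 54.2% in cluster 4 to 76.9% in cluster 2.

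*Lyve1* and *Stab2*, the 2 hyaluronan receptors that divided the cells, did so along different lines. With an ln value of 1 as the limit, chosen after the data had been seen, 17.7% of cells were high in both, 30.6% in *Lyve1* only, 13.5% in *Stab2* only and 38.1% in neither. Of these groups, 32, 28, 19 and 28 cells lay within 0.25 of a limit. At full depth *Mrc1* was found in 69.1% of the first group, 46.1% of the second, 57.9% of the cells high only in *Stab2* and 19.9% of those high in neither. Over all cells the 2 ln values were nearly uncorrelated (r = 0.02), with a phi of 0.15 at equal depth.

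Within clusters 1 and 2 phi was 0.14 and 0.12, and within cluster 3 it was below 0; these values were read after the data had been seen. At equal depth 29 cells of cluster 3 had only *Lyve1*, 59 only *Stab2*, 1 neither and the rest both, which gives a phi of -0.22. Among 9707 genes present in 10% or more of these cells, *Stab2* had the lowest correlation with *Lyve1* (r = -0.49), followed by *Sparc* (-0.42). *Stab2* had a mean ln value of 1.54 ± 0.976 in the 60.5% of cluster 3 with *Lyve1* above 1 and 2.4 ± 0.855 in the other 90 cells. *Stab1* differed the other way, with 3.60 ± 0.648 and 3.33 ± 0.494, and *Mrc1* had 0.822 ± 0.765 and 0.673 ± 0.714. *Ptx3* had 0.3 ± 0.518 and 0.285 ± 0.504. Each of these differences, that of *Stab2* included, was smaller than the SD between the cells with *Lyve1* above 1. The first cells had a median of 454266.5 reads and the other 90 had 262233.5, and the part of depth beyond the thinned comparison was not tested. In the matching cluster of each of 5 other clusterings phi lay between -0.22 and -0.17. The value of -0.17 came from the clustering that kept the members among its genes, so its cluster was formed in part by *Lyve1* and *Stab2*. Phi was -0.15 at 50000 reads, and without thinning, where few cells lacked either gene, it was -0.06.

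**Figure D4:**
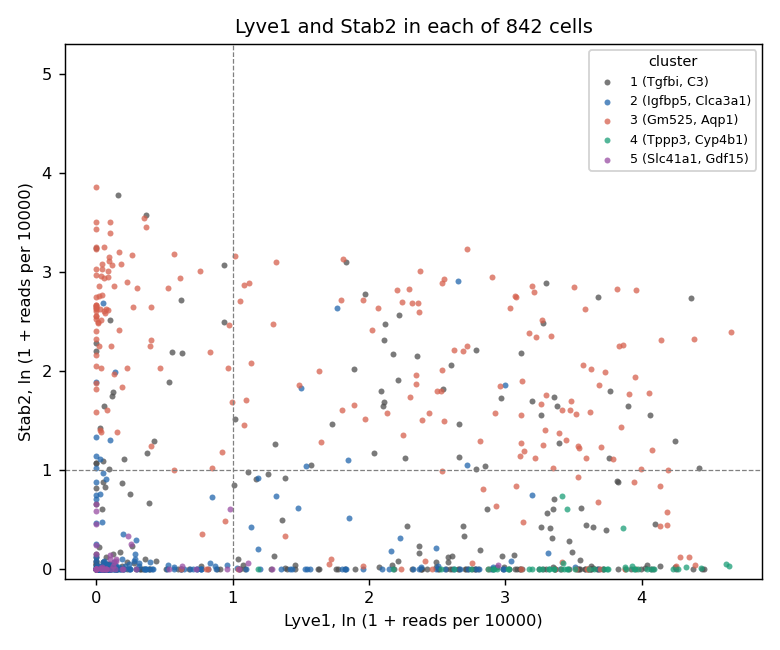
Each point is a cell, with ln of 1 plus reads per 10000 of *Lyve1* on the horizontal axis and of *Stab2* on the vertical axis, coloured by cluster, and dashed lines at 1. Cells of cluster 4 lie along the *Lyve1* axis, and cells of cluster 3 reach from high *Stab2* without *Lyve1* to high levels of both.

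Within single clusters the pairs of the larger group mostly had lower phi than over all cells; these values were read after the pairs had been seen. For *Stab2* and *Mrc1*, phi was 0.17, 0.04 and 0.11 within clusters 1, 2 and 3, against 0.33 overall. *Mrc1* and *Ptx3* had 0.19, 0.01 and 0.26 in the same order, against 0.29, and *Stab2* and *Cd36* had -0.05, 0.19 and 0.10, against 0.25. The smaller clusters held too few cells with these genes to read a value from.

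The genes whose ln values were most like each member's were sought among 9654 others found in at least 10% of cells, with r of at least 0.3 needed for a name. *Lyve1* was most like *Reln* (0.52), which encodes the secreted protein reelin of lymphatic capillaries, *Slco2b1* (0.49), an organic anion transporter gene, and *Piezo2* (0.47), a mechanosensitive channel gene. *Stab2* was most like *Gm525* (0.69), the water channel gene *Aqp1* (0.67) and the semaphorin gene *Sema7a* (0.61). *Mrc1* shared *Aqp1* (0.47) and *Gm525* (0.46) with it and was also like *Igfbp4* (0.44), and *Cd36* was like *Gm525* (0.33) and *Itih5* (0.31). Among the genes most like *Stab1* were *Igfbp4* (0.39) and *Reln* (0.37). *Ptx3* had a single gene at that level, the member *Mrc1* (0.31). For *Scarb1* and *Hyal2* no gene reached it, with highest values of 0.16 and 0.19. All of these correlations share the same cells and the same total reads.

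Among the other genes that handle hyaluronan, 4 of 7 for synthases and precursors and 4 of 6 for breakdown were found in at least 10% of cells, as were 41.7% of all genes. *Has2*, which encodes the main hyaluronan synthase of many tissues, was found in 0 cells, which at the limit of 3 counts allows up to 0.356%. The other synthase genes, named after their values were seen, were found in 9.38% (*Has1*) and 5.46% (*Has3*). The enzymes that make its sugar precursors were found in 24.2% (*Ugdh*) to 30.6% (*Ugp2*) of cells, with *Uap1* and *Gfpt1* between them. Among the breakdown genes, *Tmem2*, which encodes a cell-surface hyaluronidase, was found in 71% of cells, and the lysosomal hexosaminidase gene *Hexa* in 70.4%. The others, named after their values were seen, were *Gusb* (32.8%), *Hyal1* (27.4%), *Hyal3* (2.02%) and *Cemip* (1.43%). For the whole matrix the median share was 4.99%.

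Of the 11 genes for proteins that bind or cross-link hyaluronan, 4 were found in at least 10% of cells, against 41.7% of all genes, and *Bcan* was found in none. *Layn*, which encodes the hyaluronan receptor layilin, was found in 43.6% of cells and had its highest cluster mean in cluster 3, as *Stab2* did. *Itih5*, *Itih2* and *Itih3* encode heavy chains of inter-alpha-trypsin inhibitor, which are linked to hyaluronan, and divided the clusters differently. *Itih5* had 1.87 reads per 10000 in cluster 3 and 0.074 in cluster 2, whereas *Itih2* had 0.015 in cluster 3 and 0.683 in cluster 2, and *Itih3* was highest in cluster 4 (0.649).

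Of 12 other scavenger receptor genes in the matrix, 5 were found in at least 10% of cells, as were 41.7% of all genes. Another 4 were found in under 1% of cells, as were 6599 of the 23168 genes of the matrix. *Colec12*, a scavenger receptor with a collectin domain, was found in 66.4%, *Scarf1*, a receptor for acetylated lipoprotein on endothelium, in 65.9%, *Scarb2*, a lysosomal relative of *Scarb1* and *Cd36*, in 65.6%, and *Ager* in 16.2%. *Colec12* was highest in cluster 2 (1.94 reads per 10000, against 0.903 in cluster 3) and *Scarf1* in cluster 3 (1.78, against 1.02 in cluster 2). The other mannose receptor family genes were near the limit of detection, with *Ly75* in 2.26% and *Mrc2* and *Pla2r1* in 0.594% each.

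**Figure D5:**
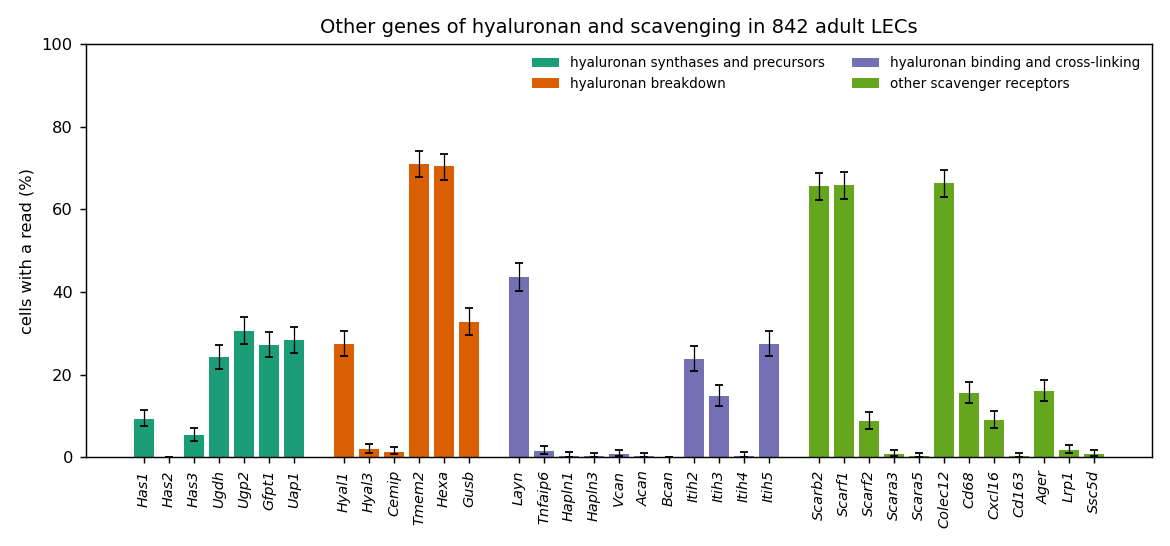
Bars give the share of cells with at least 1 read, from 0 to 100%, with 95% exact intervals that cover counting error only and are left out at 0, in 4 groups of genes without the members. Breakdown genes lie between 1.43% and 71%, the synthase genes stay under 10% with *Has2* at 0, and 3 scavenger receptor genes outside the members lie near 66%.

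Ligands and partners of the receptors were found as well. *Sparc*, a ligand of STAB1, was found in 81.4% of cells and *Thbs1*, a ligand of CD36, in 75.5%, with cluster 3 highest for both (16 and 10.3 reads per 10000). *Msn*, which encodes moesin, a partner of CD44, was found in 97.6% although *Cd44* itself was nearly undetected. *Cav1*, which encodes the caveolar coat protein, was found in 96.1% and was lowest in cluster 3 (3.53 reads per 10000, against 8.95 to 12.8 elsewhere). The endocytic and lysosomal genes were all 13 found in at least 10% of cells, against 41.7% of all genes. They were led by the cathepsin genes *Ctsb* (99.4%), *Ctsd* (97.9%) and *Ctsl* (97%) and by *Lamp2* (97.5%). *Ctsd* was highest in cluster 3, at 14.3 reads per 10000 against 3.39 to 6.50 in the others.

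Several members are also macrophage genes, so macrophage markers are given beside them, and their part in the results was not tested. Of 13 such markers in the matrix, 3 were found in at least 10% of cells, against 41.7% of all genes. They were *Cd14* (17.7%), *Cd68* (15.7%) and *Fcer1g* (10.6%), with *Lyz2* in 8.0%. The defining markers *Csf1r*, *C1qa*, *C1qb* and *C1qc*, named after their values were seen, were in 0.356% to 1.66% of cells. At least 2 of the 13 markers occurred in 95 wells and at least 9 in 2 wells, and the summed level of the 13 ranged from 0 to 337.3 reads per 10000 with a median of 0. At equal depth, cells with *Mrc1* held 0.513 of these markers on average and cells without it 0.307. For *Stab2* the values were 0.513 and 0.271, for *Cd36* 0.605 and 0.326, and for *Lyve1* 0.397 and 0.325. For *Scarb1* they were 0.455 and 0.359, and for *Ptx3* they were closer, at 0.404 and 0.363. *Hyal2* went the other way, with 0.327 in cells with it and 0.423 in cells without it. The share of wells with at least 2 markers was 18.9% in cluster 3 and 4.17% to 14% in the others. Without the 95 wells the same 5 pairs had a phi of at least 0.2, with 0.30 for *Stab2* and *Mrc1*. Fibroblast, mural and epithelial lists each had at most 1 gene in 10% of cells or more, against 41.7% of all genes. These were *Dcn* and *Kcnj8*, and *Kcnj8* was also in the list used for capillary LECs. Of the 10 blood endothelial genes 6 were found in at least 10% of cells, as were 41.7% of all genes. They were *Cldn5* (100%), which lymphatics express too, *Emcn* (94.2%), *Plvap* (77.8%), *Gpihbp1* (70.7%), *Cd300lg* (57.4%) and *Cd34* (28.9%). The others were *Vwf* (5.11%), *Sox17* (4.99%), *Flt1* (2.49%) and *Ly6c1* (0.594%). The source of these reads was not tested. None of 5 platelet and erythroid genes was found in at least 10% of cells, against 41.7% of all genes. *Hba-a1* and *Hbb-bs* were found in 0 cells.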

How the data were processed

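The matrix held 842 adult cells of 1536 wells listed. Of these, 791 had enough reads for thinning, and the 5 clusters held 268, 255, 228, 48 and 43 cells. Cells of aged mice were not analysed here. Per the submitters' processing notes and the methods, reads were mapped to mm10 (STAR) and counted (featureCounts), and wells with at least 2000 genes and at most 10% mitochondrial reads were kept. The authors deposited natural log values of 1 plus reads per 10000 (Seurat 4.1.0). The methods name log2, but only the natural log gave sums of 10000. Whole reads were recovered for 100% of values above 0 (within 0.01). Among values of 1 or 2 reads, 84.7% were 2, so reads are not independent molecules. Strand and multi-mapping settings are not given in the sources used here. Clopper-Pearson intervals (95%) and the limit of 3 counts behind a share of 0 cover counting error only.

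Thinning drew 20000 reads from each cell. Clustering in Seurat 5.3.0 (R 4.3.3) used 2000 vst genes, 15 principal components and Louvain, after regression on total reads, mitochondrial share and dissociation and ribosomal scores, at the lowest resolution in steps of 0.05 that gave 5 clusters, here 0.5. The dissociation list was written for this work. No doublet caller was run, and 52 wells had reads of *Xist* and a Y chromosome gene. The remaining steps ran in SciPy 1.17.1 under Python 3.11.15. Recovery of reads, thinning, clustering and the search for like genes were tried on simulated counts. These counts lacked the excess of even values seen here, so that trial does not cover it. Coordinates and lengths come from GENCODE M21 on GRCm38, which held 95.9% of symbols. The members and gene lists were chosen with earlier results of these data known. The genes named were the members, up to 3 genes most like each at r of at least 0.3, up to 4 genes per list with most reads, genes of a list found in no cell and 3 leading genes per cluster. Other genes were named after their values were seen. Some genes that this rule names are not reported here.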

Additional observations from a re-analysis of the deposited data

How the results depend on the processing

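No paired analysis was possible because the adult cells are 1 pooled sample with no second group. The number of members per cell and of members with a cluster ratio of at least 2 stayed within 1.5 times under every alternative. The latter was 7 in all 5 other clusterings, 1 of which kept the members among the clustering genes. The number of pairs with a phi of at least 0.2 was 5, and 5 with another seed of thinning, at 50000 reads, with at least 2 reads there, and without wells with macrophage markers. It was 3 in unthinned cells, and 3 with an ln value over 1 as the limit, a setting added after seeing the data; *Lyve1* with *Mrc1* fell below it in both (0.15 and 0.17), *Stab2* with *Ptx3* in unthinned cells (0.15) and *Stab2* with *Cd36* with a value over 1 (0.19). The cause was not tested. Shares of cells moved outside their intervals for 8 of 10 members with at least 3 reads required, 9 at equal depth and 2 in cells with at least 3000 genes. They did so for none with at least 2 reads, without wells with macrophage markers or without wells with *Xist* and a Y chromosome gene. The limit of 2 reads could hardly move a share, because 84.7% of the values of 1 or 2 reads were 2. The cluster values, the *Lyve1* and *Stab2* limits and the joint counts were read from the same cells that prompted them. Nothing here separates mice, plates or sexes, and depth limits the shares of *Cd44*, *Msr1* and the other rare genes.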
